A study of Mus musculus with 9 samples.

Results

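ISG15 is a small ubiquitin-like protein whose gene is switched on by interferon. An E1 enzyme (UBA7) activates it, an E2 enzyme (UBE2L6) carries it, an E3 ligase (HERC6 in the mouse) joins it to target proteins, and the protease USP18 removes it again and also dampens signalling at the type I interferon receptor. Several members of the poly(ADP-ribose) polymerase (PARP) family are interferon-induced as well: PARP9 works as a partner of the ubiquitin ligase DTX3L, and PARP10, PARP12 and PARP14 attach single ADP-ribose units to proteins. The 10 genes Isg15, Uba7, Ube2l6, Herc6, Usp18, Parp9, Dtx3l, Parp10, Parp12 and Parp14 were chosen by function, and matched by symbol among 19937 genes measured on probe sets of 1 gene. Of the 10, 9 had a probe set of their own, and Isg15 was found only on a probe set shared with Gm9706. They were chosen with earlier results of these data known, so their levels and changes are given as a description and no test was made of the group as a whole.

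RNA came from MC3T3-E1 subclone 4, a clonal preosteoblast line derived from mouse calvaria that forms a mineralizing matrix in culture. All cells had been infected with a lentivirus and sorted for green fluorescent protein, and carried either a scramble shRNA (Scr) or an shRNA against Runx2, a transcription factor needed for bone formation (shRunx2). The groups were Scr cells at day 0, when they were proliferating without osteogenic medium, and Scr and shRunx2 cells at day 9, after 9 days of differentiation with ascorbic acid and beta-glycerophosphate, with 3 biological replicates on 1 array each. All cells therefore carry virus and a hairpin, but the hairpin differs between the groups compared at day 9. With 1 Runx2 shRNA against 1 scramble shRNA, lower Runx2 and any other effect of the hairpin or virus cannot be told apart. The arrays include no shRunx2 group at day 0. The difference of shRunx2 day 9 from Scr day 0 therefore holds both the time and the hairpin.

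Values were RMA log2 expression levels on Affymetrix GeneChip Mouse Gene 1.0 ST arrays, where 1 unit is a doubling. Array medians ranged from 8.416 to 8.51, arrays of 1 group correlated at 0.998 or more across genes, and the number of arrays limits the precision. The target gene Runx2 is not analysed here, and the knockdown was not checked on it. Of 8 osteoblast markers measured, 7 rose over the 9 days of Scr culture, against 14.5% of all genes (limma, adjusted p under 0.05). With shRunx2 5 of the 8 fell, against 4.66% of all genes. Bglap and Spp1 of the same list are not analysed here. In RNA from whole cultures, fewer cells expressing a gene and less RNA per cell cannot be told apart.

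All 9 genes with a probe set of their own were higher in each of the 3 shRunx2 arrays than in any Scr array of day 9, whether they handle ISG15 or ADP-ribose. The size of the difference ran from 1.09-fold for the E1 gene Uba7 to 3.09-fold for the protease gene Usp18, with a median log2 difference of 0.56 over 9 genes against -0.0041 over all genes tested. In the fit over all genes, 8 of 9 passed an adjusted p of 0.05 in the upward direction, a threshold that 2.73% of all genes passed, and Uba7 did not. At least 1.5-fold was reached by 4 of them (Usp18, Herc6, Parp14 and Ube2l6), as by 0.396% of all genes, and none was lower by limma, also at an unadjusted p of 0.05, against 4.66% of all genes at the adjusted threshold. Arrays of both groups lay apart in the upward direction for 9 of 9 genes and for 8.34% of all genes. Since these values were known when the genes were chosen, nothing is read from the counts.

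**Figure D1:**
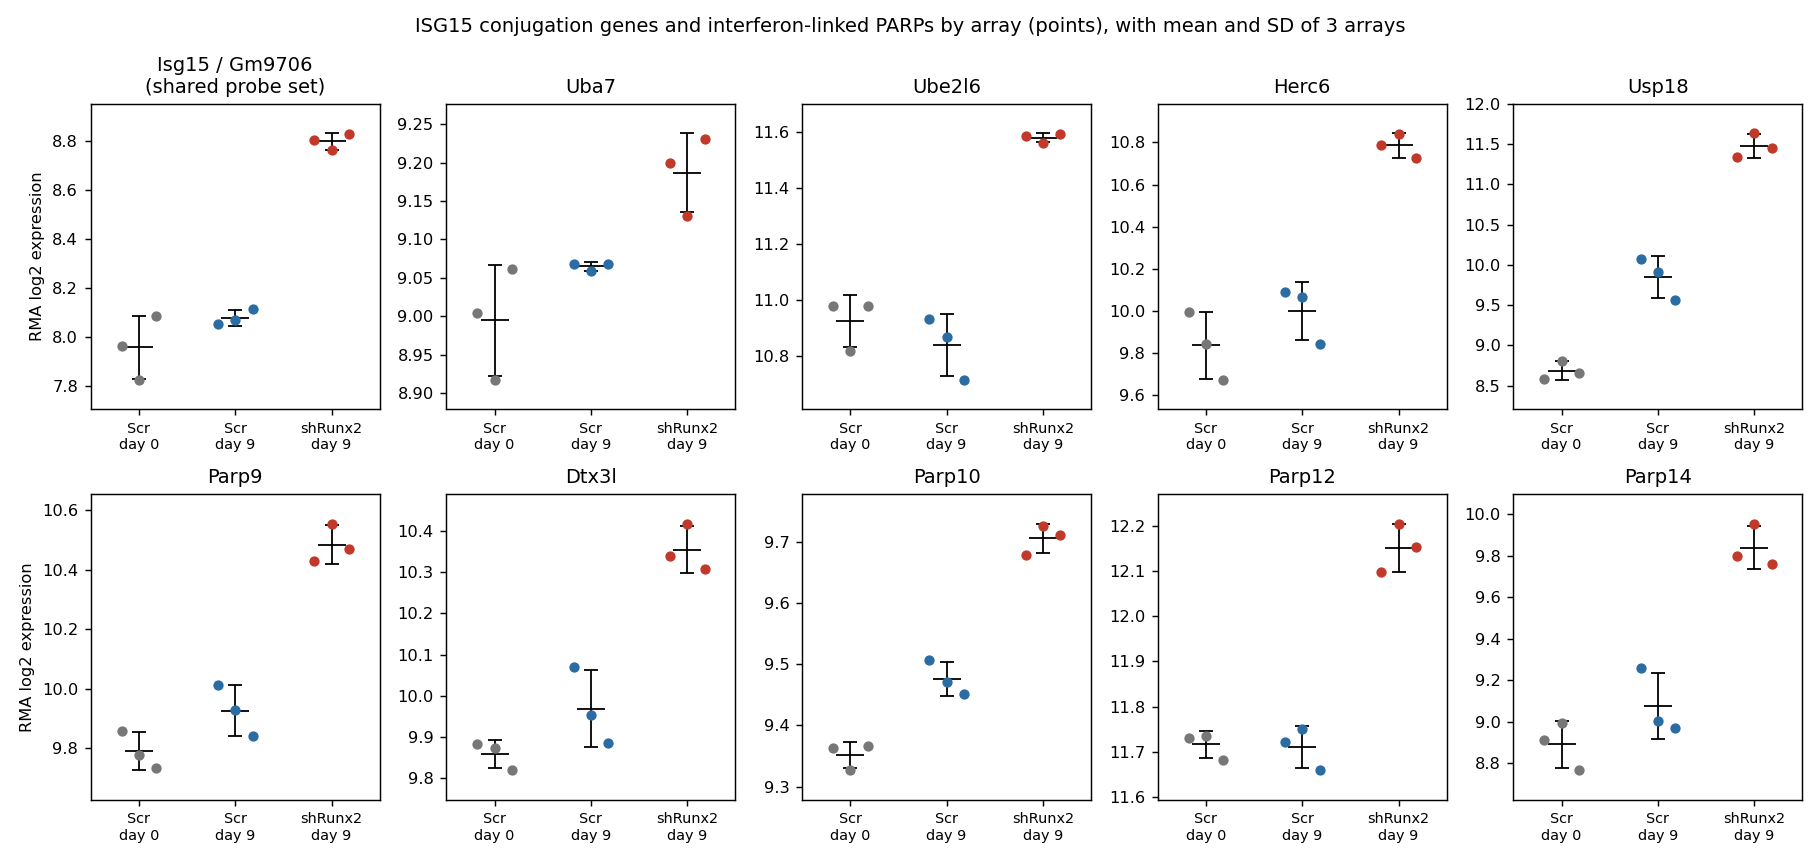
RMA log2 expression (y axis, scaled to each gene) of the probe set shared by Isg15 and Gm9706 and of 9 genes (x axis: the group, Scr at both days and shRunx2 at day 9). Points are arrays, and the horizontal mark and bars are the mean and SD of 3 arrays. In all 10 panels the 3 shRunx2 points lie above every Scr point.

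Isg15 encodes the modifier. The probe set that reads it also reads Gm9706, annotated by RefSeq as a pseudogene on chromosome 17, while Isg15 lies on chromosome 4, so its signal cannot be divided between them and stayed out of all counts. This shared probe set read 7.96, 7.83 and 8.08 in Scr day 0, 8.05, 8.07 and 8.11 in Scr day 9, and 8.80, 8.76 and 8.83 in shRunx2 day 9. The Scr groups overlapped and all shRunx2 arrays lay above them. The mean difference was 0.72 (1.65-fold) with shRunx2 and 0.12 (1.09-fold) over the 9 days in Scr cells.

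The promoter of Isg15 is known for its interferon-stimulated response element (ISRE), a sequence that binds STAT2 and IRF9 in complex and other IRF proteins. Promoter sequences (250 bases before to 50 after the start site) were found in RefSeq (GRCm38.p6) for 6 of the 10 genes: Isg15, Uba7, Ube2l6, Herc6, Dtx3l and Parp12. An ISRE core, spelled GAAANNGAA and searched on both strands, matched in 1 of these 6 and in 8.56% of 32851 promoters of the same length. In Isg15 it matched 3 times in overlapping positions, beginning 78, 72 and 66 bases before the start. The 120 bases before the start are shown for Isg15 and, for comparison, for the E1 gene, the E2 gene and the E3 gene, on the strand of each gene, with the bases of ISRE core matches in capitals.
Isg15 (chr4:156200819-156200938, minus strand): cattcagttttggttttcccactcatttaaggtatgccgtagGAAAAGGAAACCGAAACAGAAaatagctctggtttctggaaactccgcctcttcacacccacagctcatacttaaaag
Uba7 (chr9:107975447-107975566, plus strand): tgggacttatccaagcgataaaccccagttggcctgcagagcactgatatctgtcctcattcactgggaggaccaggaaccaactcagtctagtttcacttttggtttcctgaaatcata
Ube2l6 (chr2:84798708-84798827, plus strand): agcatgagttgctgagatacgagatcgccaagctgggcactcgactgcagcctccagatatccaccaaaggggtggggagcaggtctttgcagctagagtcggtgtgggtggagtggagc
Herc6 (chr6:57580872-57580991, plus strand): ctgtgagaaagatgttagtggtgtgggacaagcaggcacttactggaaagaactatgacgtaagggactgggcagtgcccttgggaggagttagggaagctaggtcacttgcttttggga
The other 3 windows hold no capitals because these exact letters do not occur in them, which says nothing on whether a factor binds there. The core of the Runx motif, spelled TGTGGT and searched on both strands, occurred in 0 of the 6 promoters and in 16.8% of all promoters, and a match or its absence is a description of the letters only.

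Uba7 encodes the enzyme that activates ISG15 and changed least. Its log2 levels were 9.00, 8.92 and 9.06 in Scr day 0, 9.07, 9.06 and 9.07 in Scr day 9, and 9.20, 9.13 and 9.23 in shRunx2 day 9. The shRunx2 arrays were the highest of the 9, yet the gap to Scr day 9 was 0.12 ± 0.044 (SE, n = 3 against 3) and did not pass the threshold. By size of the increase with shRunx2 it had rank 1320 of 19937 genes.

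Ube2l6, the gene of the E2 carrier, had overlapping Scr levels at both days and a step with shRunx2. It read 10.98, 10.82 and 10.98 in Scr day 0, 10.93, 10.87 and 10.72 in Scr day 9, and 11.59, 11.56 and 11.59 in shRunx2 day 9. The shRunx2 arrays lay close together and above all Scr arrays. The difference with shRunx2 was 0.74 ± 0.060 (1.67-fold, rank 57), and that between the days was -0.086 ± 0.060. Herc6, the gene of the main ISG15 ligase in the mouse, was alike, with 10.00, 9.84 and 9.67 in Scr day 0, 10.09, 10.07 and 9.84 in Scr day 9, and 10.79, 10.84 and 10.73 in shRunx2 day 9. Its Scr groups overlapped too, and its difference with shRunx2 was 0.78 ± 0.082 (1.72-fold, rank 48).

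Usp18, the gene of the deconjugating protease, stood out in size and moved at both steps. Its log2 levels were 8.59, 8.81 and 8.66 in Scr day 0, 10.07, 9.91 and 9.56 in Scr day 9, and 11.34, 11.63 and 11.45 in shRunx2 day 9. The 3 groups formed 3 separate tiers. Scr cells gained 1.16 ± 0.12 over the 9 days (2.23-fold, rank 153), and shRunx2 cells stood 1.63 ± 0.12 above Scr cells at day 9 (3.09-fold, rank 8), which made 2.79 (6.89-fold) between shRunx2 day 9 and Scr day 0.

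Parp9 and Dtx3l encode partner proteins and lie next to each other on chromosome 16, where their RefSeq gene bodies overlap by 558 bases on opposite strands. Parp9 read 9.86, 9.78 and 9.73 in Scr day 0, 10.01, 9.93 and 9.84 in Scr day 9, and 10.43, 10.55 and 10.47 in shRunx2 day 9. Dtx3l read 9.88, 9.87 and 9.82 in Scr day 0, 10.07, 9.95 and 9.89 in Scr day 9, and 10.34, 10.42 and 10.31 in shRunx2 day 9. Both were highest in the 3 shRunx2 arrays, and among the Scr day 9 arrays both were highest in replicate 1 and lowest in replicate 3. The difference with shRunx2 was 0.56 ± 0.054 for Parp9 (1.47-fold, rank 88) and 0.39 ± 0.051 for Dtx3l (1.31-fold, rank 167). Over 9 arrays in 3 groups the levels of this gene pair correlated at 0.993.

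Among the mono-ADP-ribosylating enzymes, Parp14, whose protein also has macrodomains that read ADP-ribose, changed most. Its log2 levels were 8.91, 8.99 and 8.77 in Scr day 0, 9.26, 9.00 and 8.97 in Scr day 9, and 9.80, 9.96 and 9.76 in shRunx2 day 9. The Scr groups overlapped, and shRunx2 arrays lay 0.76 ± 0.083 above Scr day 9 in the mean (1.70-fold, rank 54). Parp12, which encodes a zinc finger protein of the family, had overlapping Scr levels at day 0 (11.73, 11.74 and 11.68) and day 9 (11.72, 11.75 and 11.66), with a difference of -0.0058 ± 0.041. In shRunx2 cells it read 12.10, 12.21 and 12.15, a difference of 0.44 ± 0.041 (1.36-fold, rank 129). Parp10 had the narrowest groups: 9.36, 9.33 and 9.37 in Scr day 0, 9.51, 9.47 and 9.45 in Scr day 9, and 9.68, 9.73 and 9.71 in shRunx2 day 9. These were 3 tiers without overlap but with small steps, 0.12 ± 0.035 between the days (1.09-fold) and 0.23 ± 0.035 with shRunx2 (1.17-fold, rank 399).

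Ordered by the difference with shRunx2, the genes ran Usp18, Herc6, Parp14, Ube2l6, Parp9, Parp12, Dtx3l, Parp10 and Uba7. Usp18 exceeded Herc6 by 0.84 on the log2 scale, with a combined SE of 0.14. Herc6, Parp14 and Ube2l6 could not be ordered, as neighbours differed by 0.023 and 0.021 with combined SEs of 0.12 and 0.10. Parp12 and Dtx3l differed by 0.056, against a combined SE of 0.065. Combined SEs treat the genes of a pair as independent, though they share arrays, and Parp12 and Dtx3l correlated at 0.629 within groups. An SE of the difference taken array by array was not computed, so the order of Parp12 and Dtx3l is left undecided. The remaining neighbours were 1.71 (Parp9 and Parp12) to 2.55 (Dtx3l and Parp10) combined SEs apart.

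Over the 9 days in osteogenic medium most of the group showed small differences in Scr cells. From day 0 to day 9 in Scr cells, 2 of 9 genes were higher at the threshold, Usp18 and Parp10, where 14.5% of all genes were higher. Usp18 was the only gene of the 9 to reach 1.5-fold, as 2.89% of all genes did, and none was lower by limma, also at an unadjusted p of 0.05, against 17.1% of all genes at the adjusted threshold. The other 7 differed by -0.086 (Ube2l6) to 0.19 (Parp14). Leaving out 1 array moved these limits: Ube2l6 was at -0.025 if Scr day 9 replicate 3 was dropped, at -0.13 if that was replicate 1, and at -0.14 if Scr day 0 replicate 2 was dropped. Parp14 was at 0.094 if Scr day 9 replicate 1 was dropped and at 0.12 if it was Scr day 0 replicate 3. The median over 9 genes was 0.12 against -0.016 over all genes. Day 9 arrays lay above all day 0 arrays for 3 of 9 genes (Usp18, Parp10 and Dtx3l) and for 18.1% of all genes. These counts rest on single arrays: without Scr day 9 replicate 3 the 2 became 5, with Herc6, Parp9 and Dtx3l added, and without Scr day 0 replicate 2 it was 1, because Parp10 no longer passed. The call of Parp10 also did not pass when each array was centred on its median, where its difference was 0.091. Without Scr day 0 replicate 1 Herc6 passed as well, with a difference of 0.24.

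**Figure D2:**
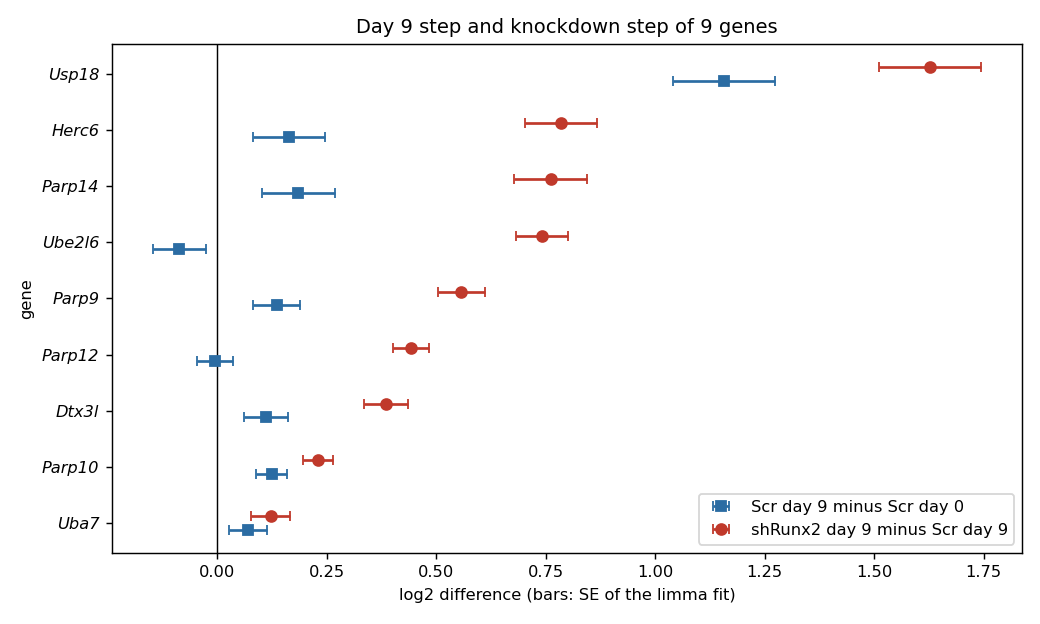
Log2 differences (x axis) of 9 genes (y axis), for Scr day 9 minus Scr day 0 (squares) and shRunx2 day 9 minus Scr day 9 (circles), with the SE of the fit as bars; both share the Scr day 9 arrays. The circle lies to the right of the square for each gene, at 0.12 for Uba7 to 1.63 for Usp18, while 8 of 9 squares lie between -0.086 and 0.19.

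Both differences use the Scr day 9 arrays and add up to that between shRunx2 day 9 and Scr day 0. The knockdown step made up 58.4% of this sum for Usp18, 63.4% for Uba7 and 64.9% for Parp10, between 77.7% and 82.8% for Dtx3l, Parp9, Parp14 and Herc6, 101% for Parp12 and 113% for Ube2l6. A share above the whole means that the Scr level at day 9 was no higher than that at day 0. All shRunx2 arrays exceeded all Scr day 0 arrays for 9 of 9 genes and for 17.7% of all genes.

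Within a group the genes also shared part of their variation between arrays. In Scr day 9, replicate 1 alone was highest for 7 of 9 genes and replicate 3 lowest for 8 of 9, with Uba7 tied between them and Parp12 highest in replicate 2, where over all genes tested these arrays were highest for 35.3% and lowest for 33.3%. The mean deviation of the 9 genes from the group mean was 0.091, 0.011 and -0.10 in replicates 1, 2 and 3. Array medians ran the other way, at 8.466, 8.471 and 8.487. In shRunx2 day 9, replicate 2 was highest for 7 of 9 genes and for 42.3% of all genes, and its array median was also the highest of the 3 (8.499, 8.51 and 8.483). The source of these deviations was not tested.

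**Figure D3:**
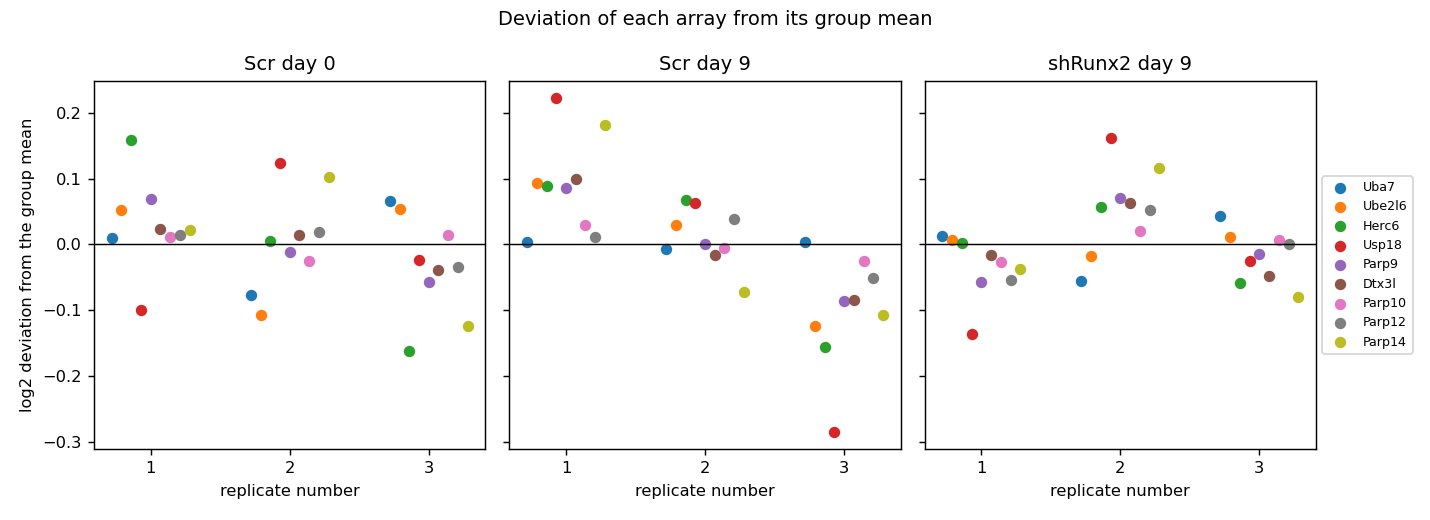
Log2 deviation of each array from the mean of its group (y axis) by replicate number (x axis), 1 panel per group, with 1 colour per gene for 9 genes. In the Scr day 9 panel 7 of 9 genes have their highest point in replicate 1 alone and 8 of 9 their lowest in replicate 3, while Uba7 is tied between both.

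Across all 9 arrays, the correlations of the 36 gene pairs ran from 0.763 to 0.995 with a median of 0.956, which includes the differences between the groups. After the group means were taken out they ran from -0.655 to 0.931 with a median of 0.552, and were above 0 for 30 pairs. The 6 pairs below 0 all included Uba7, the gene with the smallest differences. The points of these correlations share their arrays, so they are a description with no test. Pairs of other genes were not computed, so how common such correlations are on these arrays was not tested.

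Genes outside the group whose levels followed it most closely were found by Pearson correlation with its mean centred profile over the 9 arrays, among 384 genes with an SD of at least 0.5. They were Cxcl10 (0.995), an interferon-induced chemokine, Bst2 (0.993), which tethers enveloped virus particles to the cell, Gm12250 (0.992), Irf7 (0.991), an interferon-induced transcription factor, and Phf11d (0.991). Bst2 read 9.88, 9.87 and 9.95 in Scr day 0, 10.52, 10.46 and 10.31 in Scr day 9, and 11.51, 11.73 and 11.57 in shRunx2 day 9. Its groups formed 3 tiers, as those of Usp18 did. Cxcl10 read 9.25, 9.19 and 9.09, then 9.56, 9.55 and 9.46, then 10.54, 10.81 and 10.63 in the same groups. All 5 had their highest Scr day 9 value in replicate 1 and their lowest in replicate 3, but they were picked for likeness over these same arrays, so this is no independent observation.

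The PARPs of the group were set against the rest of their family and the enzymes that remove ADP-ribose. Whether any of these others respond to interferon was not tested. Of 18 such genes, 16 were measured, Parp4 was found only on a shared probe set and Adprh is not analysed here. With shRunx2, 1 rose, 1 fell and 14 did not pass, where 2.73% of all genes rose and 4.66% fell. The median difference was 0.0079, near that of all genes (-0.0041). These were named after their values were seen: Zc3hav1, the antiviral zinc finger PARP also called PARP13, rose by 0.29 ± 0.046 (limma adjusted p 0.00298), and Tnks2, a tankyrase, fell by 0.21 ± 0.043 (limma adjusted p 0.0112). Tnks2 no longer passed without shRunx2 day 9 replicate 1 (adjusted p 0.0534) or without replicate 2 of Scr day 9 (0.0524). Parp1, the founding nuclear PARP of DNA repair, read 10.29, 10.23 and 10.28 in Scr day 9 and 10.26, 10.31 and 10.24 in shRunx2 day 9. These overlapped, with a difference of 0.0016 ± 0.037 (limma adjusted p 0.989).

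From day 0 to day 9, 5 of the 16 rose and 2 fell, where 14.5% of all genes rose and 17.1% fell. The median of the 16 was 0.011 against -0.016 for all genes. Macrod2, a macrodomain hydrolase of ADP-ribose, was the only one past 1.5-fold, from 9.42, 9.50 and 9.37 to 10.09, 10.26 and 10.07 in Scr cells, a rise of 0.71 ± 0.056 (limma adjusted p 1.62e-06). It read 10.02, 10.02 and 9.93 in shRunx2 day 9, below all Scr day 9 arrays, a difference of -0.15 ± 0.056 (limma adjusted p 0.161). This difference was -0.089 without Scr day 9 replicate 2, -0.091 over the mean of its probe sets, and -0.22 with array weights, where it passed (limma adjusted p 0.0246). Parp1 fell over the 9 days by 0.22 ± 0.037 (limma adjusted p 6e-04), and Zc3hav1 by 0.15 ± 0.046 (limma adjusted p 0.0271). Both differences of Zc3hav1 use its Scr day 9 arrays, which were the lowest of the 9. The number that fell over the 9 days was 1 when Zc3hav1 was lost, as happened without any 1 of the Scr day 0 arrays or without Scr day 9 replicate 3 (adjusted p 0.0596 to 0.0975).

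**Figure D4:**
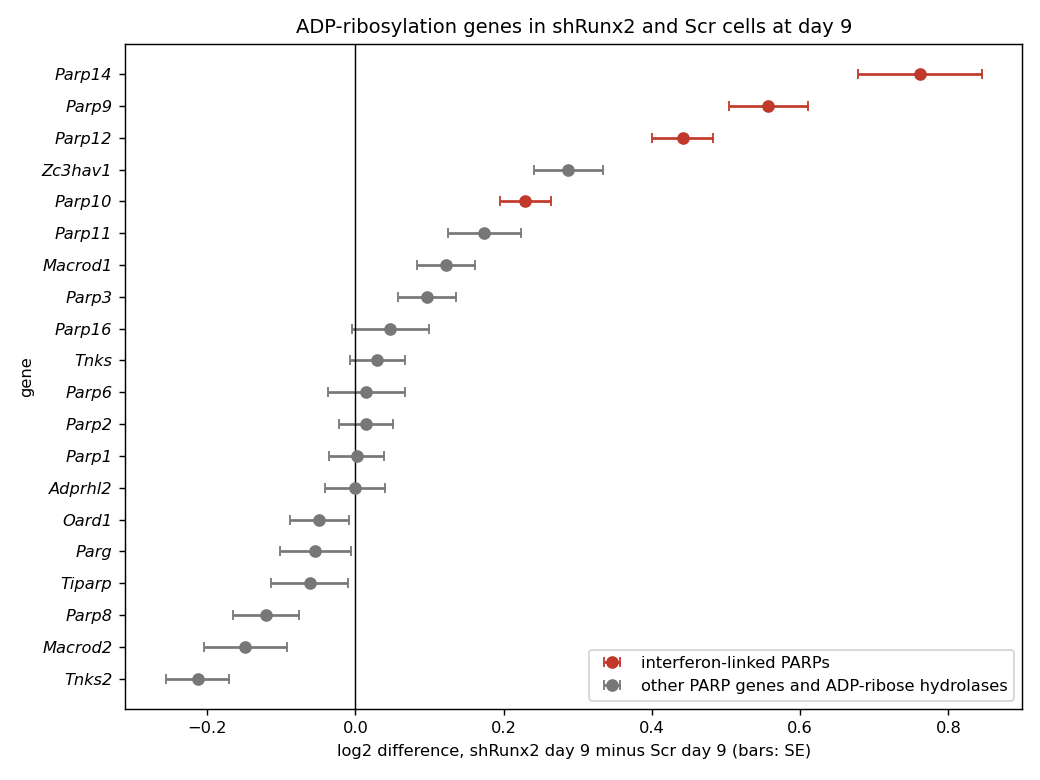
Log2 difference between shRunx2 day 9 and Scr day 9 (x axis, bars are the SE of the fit), sorted on the y axis. Red marks the 4 PARPs chosen as interferon-linked, and grey marks 16 other PARP genes and ADP-ribose hydrolases. The red points lie between 0.23 and 0.76 and the grey ones between -0.21 (Tnks2) and 0.29 (Zc3hav1); the red genes were chosen with these values known.

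The ISG15 enzymes have close relatives in the ubiquitin, NEDD8 and SUMO pathways, of which 23 of 27 listed were measured; the others, Uba1 among them, are not analysed here. With shRunx2, 1 rose, 2 fell and 20 did not pass, where 2.73% of all genes rose and 4.66% fell. The median of the 23 was -0.047 against -0.0041 for all genes. Ube2l3, the ubiquitin E2 nearest to Ube2l6, read 12.62, 12.55 and 12.56 in Scr day 9 and 12.63, 12.57 and 12.65 in shRunx2 day 9. The groups overlapped, with a difference of 0.044 ± 0.038 (limma adjusted p 0.59). Herc3, a HERC family ligase, fell over the 9 days from 8.07, 8.03 and 8.13 to 7.45, 7.50 and 7.40, by 0.62 ± 0.043 (limma adjusted p 5.66e-07). It was 7.28, 7.32 and 7.23 in shRunx2 cells, lower by a further 0.18 ± 0.043 (limma adjusted p 0.0326), opposite in direction to Herc6. Herc3 levels lay below every array median (8.416 to 8.51) in all groups, and those of Herc6 lay above. Named after their values were seen, Trim25, a ubiquitin ligase that can also conjugate ISG15, rose by 0.23 ± 0.054 (limma adjusted p 0.0251) and Dtx4, of the deltex ligases, fell by 0.17 ± 0.039 (limma adjusted p 0.0227).

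These 3 knockdown calls among the relatives were near the threshold. Trim25 was lost without Scr day 9 replicate 2 or 3 or any 1 of the shRunx2 arrays (adjusted p 0.0630 to 0.0933). Herc3 was lost when shRunx2 replicate 1 or 3, or replicate 1 or 2 of Scr day 9, was left out (0.0840 to 0.144), and with the replicate number as a block (0.0518). Dtx4 was lost when replicate 1 or 2 of either day 9 group was left out (0.0634 to 0.107). From day 0 to day 9, 3 of the 23 rose and 9 fell, where 14.5% of all genes rose and 17.1% fell. The median of the 23 was -0.067 against -0.016 for all genes.

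Upstream of the whole group lies the type I interferon pathway, in which secreted interferon binds the receptor chains IFNAR1 and IFNAR2 and the kinases JAK1 and TYK2 act on STAT2, which works with IRF9. Of 18 listed genes 16 were measured; Ifna1 was found only on a shared probe set. With shRunx2 3 rose, 3 fell and 10 did not pass, where 2.73% of all genes rose and 4.66% fell. The median of the 16 was 0.021. The 3 that rose were Stat2, Irf9 and Irf7, a factor that drives interferon genes, each by at least 1.5-fold. Stat2 read 10.39, 10.34 and 10.17 in Scr day 9 and 10.97, 11.09 and 11.03 in shRunx2 day 9, a rise of 0.73 ± 0.056 (limma adjusted p 1.31e-05). Irf9 went from 9.91, 9.88 and 9.72 to 10.58, 10.70 and 10.60, a rise of 0.79 ± 0.056 (limma adjusted p 8.5e-06). Irf7 went from 9.11, 9.09 and 8.80 to 10.16, 10.43 and 10.05, a rise of 1.21 ± 0.099 (limma adjusted p 2.38e-05). For all 3 genes the shRunx2 arrays lay above every Scr array, and among Scr day 9 arrays replicate 1 was the highest and replicate 3 the lowest.

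The interferon beta gene and the receptor genes did not pass the threshold with shRunx2. Ifnb1 read 7.14, 7.34 and 7.18 in Scr day 0, 7.05, 7.22 and 7.19 in Scr day 9, and 7.25, 7.19 and 7.18 in shRunx2 day 9. The 3 groups overlapped, with a difference of 0.050 ± 0.060 with shRunx2 (limma adjusted p 0.718). Among the other interferon genes measured, Ifne, Ifnk and Ifna4 overlapped between the day 9 groups. Ifna2, named after its values were seen, lay higher in all shRunx2 arrays than in Scr day 9. Its difference was 0.15 ± 0.053 and did not pass (limma adjusted p 0.133). Ifnar1 read 10.60, 10.55 and 10.50 in Scr day 9 and 10.47, 10.43 and 10.38 in shRunx2 day 9, lower in all shRunx2 arrays. Its difference was -0.12 ± 0.044 and did not pass (limma adjusted p 0.139). Ifnar2 differed by 0.0096 ± 0.036 (limma adjusted p 0.927). An array level near the low end of the scale cannot tell a low transcript from none, so a small amount of Ifnb1 RNA would not be detectable here.

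The other 3 called genes of the pathway fell with shRunx2. Socs3, an inhibitor of cytokine signalling, fell by 0.30 ± 0.060 (limma adjusted p 0.0104), but it has 2 probe sets, which differed by 0.096 and -0.30, and their mean did not pass (-0.10, limma adjusted p 0.339). Named after their values were seen, Jak1 fell by 0.16 ± 0.040 (limma adjusted p 0.0383) and Irf3, a factor that induces interferon genes, fell by 0.19 ± 0.044 (limma adjusted p 0.0266). The call for Jak1 was lost without any 1 of the Scr day 9 or shRunx2 arrays or without Scr day 0 replicate 2 (adjusted p 0.0509 to 0.118) and with the replicate number as a block (0.0554). Irf3 was lost when shRunx2 replicate 1 or 2, or replicate 1 of Scr day 9, was left out (0.0706 to 0.108).

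From day 0 to day 9 the pathway had 4 genes that rose and 3 that fell, with a median of -0.0010. Over all genes 14.5% rose and 17.1% fell. The increases in the pathway were led by Jak1, from 11.64, 11.53 and 11.54 to 12.04, 12.06 and 12.09, by 0.49 ± 0.040 (limma adjusted p 2.22e-06). Irf9 rose by 0.28 ± 0.056 (limma adjusted p 0.00235), Irf3 by 0.13 ± 0.044 (limma adjusted p 0.0402) and Irf7 by 0.33 ± 0.099 (limma adjusted p 0.0234), but Irf7 did not pass without Scr day 0 replicate 1 or Scr day 9 replicate 1 or 2 (adjusted p 0.0908 to 0.0975), and the number that rose was 2 without Scr day 9 replicate 1. Irf3 did not pass without that array, without shRunx2 replicate 1 or 2, or when Scr day 0 lacked replicate 2 or 3 (adjusted p 0.0502 to 0.126). Stat2 differed by 0.062 ± 0.056 (limma adjusted p 0.48). Irf1, an interferon-induced factor named here after its values were seen, as were Jak1 and Irf3, fell by 0.44 ± 0.045 (limma adjusted p 1.22e-05). With shRunx2 Irf1 stood 0.15 ± 0.045 above Scr day 9, which did not pass (limma adjusted p 0.0748). Socs3 fell from 11.16, 11.28 and 11.36 to 10.16, 10.18 and 10.14, by 1.11 ± 0.060 (limma adjusted p 6.84e-08), and Ifnar1 by 0.17 ± 0.044 (limma adjusted p 0.0107).

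**Figure D5:**
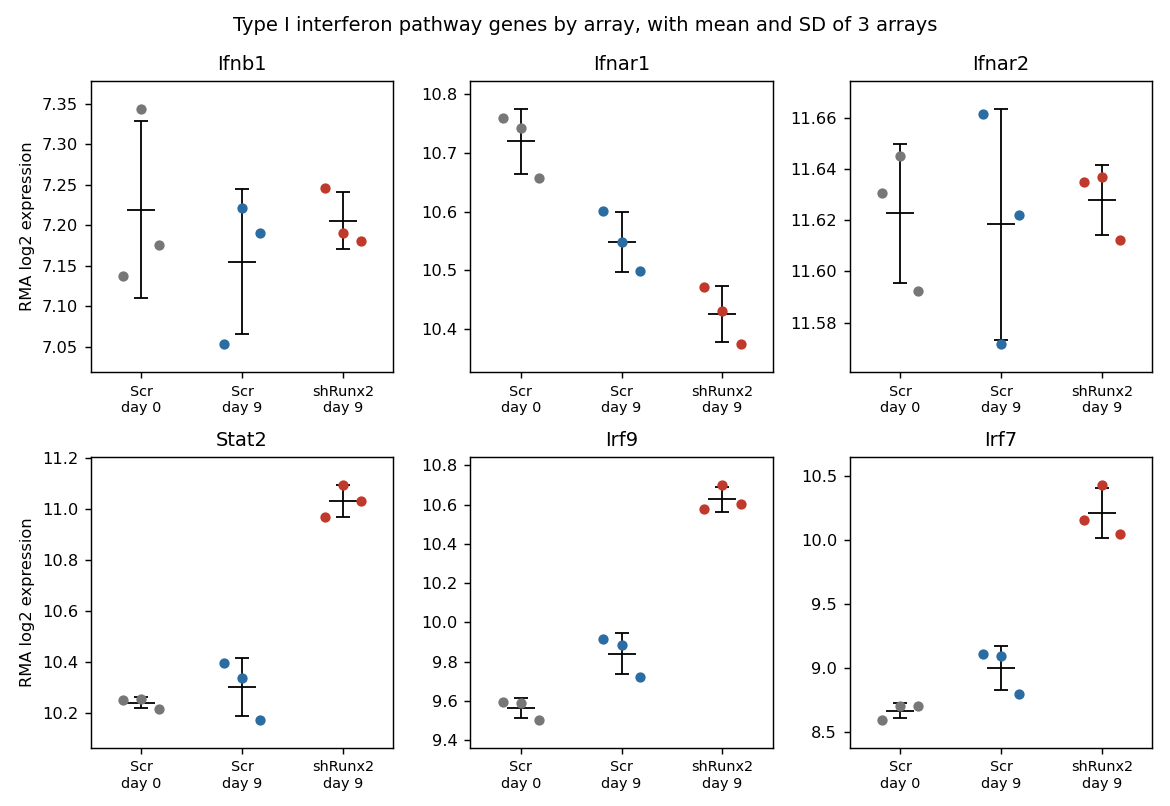
RMA log2 expression (y axis, scaled to each gene) of 6 type I interferon pathway genes by group (x axis), with arrays as points and the mean and SD of 3 arrays as marks and bars. The shRunx2 points of Stat2, Irf9 and Irf7 lie above all Scr points, and those of Ifnar1 lie below all Scr points. The 3 groups overlap for Ifnb1 and Ifnar2.

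Blood cells can carry high levels of interferon-induced genes, so their markers were read in the same arrays. Of 15 macrophage and leukocyte markers measured, 1 rose with shRunx2 (the lysozyme gene Lyz2, by 0.42, limma adjusted p 0.0125), 1 fell (the Fc receptor gamma chain gene Fcer1g, by 0.27, limma adjusted p 0.00561) and 13 did not pass; both were named after their values were seen. Their summed log2 level was 117.5 to 117.9 in Scr day 0, 118.1 to 118.7 in Scr day 9 and 118.6 to 119.1 in shRunx2 day 9. Lyz2 was set aside after its values were seen, and the falling Fcer1g was kept. Without Lyz2, the sum of the other 14 was 109.5 to 110.2, 109.2 to 110.1 and 109.4 to 109.9 in the same groups, which overlapped. At an unadjusted p of 0.05 (limma), 2 of the 15 were higher with shRunx2 and 1 was lower. Cd14 lay above Scr day 9 in all shRunx2 arrays, by 0.14 ± 0.048 (limma adjusted p 0.135). At the adjusted threshold 2.73% of all genes rose with shRunx2 and 4.66% fell. Over the 9 days Lyz2 and Fcer1g rose and Cd14 fell, while 12 did not pass, where 14.5% of all genes rose and 17.1% fell. The defining leukocyte gene Ptprc stood at 7.33 in Scr day 9 and 7.32 in shRunx2 day 9 in the mean, and the macrophage genes Adgre1 and Csf1r at 7.05 and 7.02, and at 7.76 and 7.77. Of 8 endothelial markers 0 passed in either comparison by limma, and 0 at an unadjusted p of 0.05. Array values have no zero, and the part of these cells in the differences was not tested.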

How the data were processed

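Each array measured total RNA of 1 culture. The deposited values are log2 levels that the authors made with RMA (background correction, quantile normalization, median polish); the submitters' processing notes name RMA and limma, the filter their methods mention is not described, and the genome build is not given in the sources used here. Probe sets were named by the platform annotation: of 34760, 21640 had 1 symbol, 1321 several and 11799 none. The 954 genes with several probe sets were read on the one with the highest mean, each of the 9 genes of interest having 1. Differences were fitted with limma 3.58.1 in R 4.3.3 (lmFit, eBayes) on all 9 arrays as 1 model of group means, with Benjamini-Hochberg adjustment over 19937 genes and an adjusted p under 0.05, checked on simulated data. The ± values are the SE of this model. Columns of all 9 arrays were mapped by their labels.

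The genes, the companion lists and the tests were chosen with earlier results of these data known. From the PARP, conjugation and interferon lists, genes were named when they passed with at least 1.5-fold in either comparison, and Ube2l3, Parp1, Ifnb1, Ifnar1, Ifnar2, Stat2, Irf9 and Irf7 whatever their values. The 5 genes of most similar profile were named too. Coordinates are those of RefSeq GRCm38.p6, used for promoters and gene places only. Alternatives were a replicate block, leaving out each array, the 6 arrays compared, a filter on dim genes, all probe sets, the mean of a gene's probe sets, trend and robust variance, array weights, and centring or quantile normalizing again.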

Additional observations from a re-analysis of the deposited data

How the results depend on the processing

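The number of genes of the ISG15 and PARP group higher with shRunx2 was 8 in each of the 18 alternatives, 9 of which leave out 1 array, and 4 to 5 of them reached 1.5-fold. Several alternatives left the log2 differences of the group with shRunx2 as in the reported fit, with a median of 0.56. They were the replicate block, any Scr day 0 array left out, and only the arrays compared. The filter on dim genes, every probe set, the mean of probe sets, and trend and robust variance did so too. In these the count tests only the error and the adjustment, not the size of the differences. Of the differences of the group and of 13 named companion genes, which alone were run under these alternatives, none that passed the threshold changed direction.

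At day 9 against day 0 the number of the group that was higher was 4 with array weights, 1 with arrays centred on their medians, and 1 to 5 with 1 array left out. With shRunx2, the number over all genes was 917 higher with array weights and 355 to 542 with 1 array left out, and that lower was 590 with every probe set tested, 1673 with array weights and 503 to 960 with 1 array left out, against 544 and 930. Of the other PARP genes, the number that rose was 2 with the replicate number as a block, 2 among genes above the median level, 3 with array weights, 3 after quantile normalizing again and 1 with 1 array left out; the additions include Parp11 (0.17, limma adjusted p 0.0594 in the reported fit). The number that fell was 2 with array weights and 0 to 1 with 1 array left out. Of the conjugation relatives, 0 rose with 6 arrays alone or with every probe set tested, and 0 to 1 with 1 array left out; 1 fell with the replicate block, 1 with 6 arrays alone, 0 with every probe set and 0 to 2 with 1 array left out. In the interferon pathway, 0 fell with every probe set tested, where more tests are adjusted for, and 1 to 3 with 1 array left out. Over the 9 days, 1 other PARP gene fell with every probe set and 1 to 2 with 1 array left out, and 2 interferon pathway genes rose with every probe set and 2 to 4 with 1 array left out. The cause of these shifts was not tested.

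Groups share replicate numbers in the labels, and the study's methods name no pairing, so the reported fit has no block. Deviations of same-numbered arrays correlated at 0.0823 to 0.294 between Scr day 0 and Scr day 9. Between shRunx2 and either Scr group they correlated at -0.114 to 0.129. Arrays of unlike numbers were not compared in this way, so these values do not settle whether the numbers are pairs. With the replicate number as a block, 8 genes of the group were still higher with shRunx2, and Herc6 passed for day 9 against day 0 (limma adjusted p 0.0364). Arrays show no read depth, and 3 per group leave small differences such as that of Uba7 (adjusted p 0.143) undecided.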
